A study of Mus musculus with 4 samples.

Results

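The Ifi200 family is a cluster of interferon-inducible mouse genes that code for DNA-binding proteins. Its 9 members described here are Aim2, Ifi213, Ifi209, Ifi207, Ifi204, Mndal, Ifi211, Ifi203 and Ifi205. They were taken by name from the 32285 genes of a single-cell count matrix and followed through every named cell type and every sample. All 9 were detected. The cells were CD45+ cells sorted from subcutaneous YUMM1.7OVA melanomas, a mouse tumour line that expresses the model antigen ovalbumin. All tumours grew in Rag2-/- mice, which have no T or B cells of their own, and all mice received activated OT-1 CD8+ T cells against ovalbumin on day 7, so that the tumours taken on day 10 were seen 72 h after transfer. The 4 groups differ in the injected line, and per the study's methods the mice were age-matched within an experiment. The methods also state that cells resistant to BRAF inhibition and their engineered derivatives were kept in dabrafenib in culture. NTT is the clone 3A6, naive to targeted therapy. RTT is the clone 2B12, resistant to BRAF inhibition. RTT_ROSA26 is a resistant line with a control guide against the ROSA26 locus, and RTT_PTGS12KO is a resistant line in which Ptgs1 and Ptgs2, the genes for COX1 and COX2, were knocked out through inducible Cas9. Each group was 1 sample. The labels give 1 tumour per condition while the study describes pooled tumours for some of these groups, which could not be settled. The edit sits in tumour cells, which the CD45+ sort leaves out, so Ptgs1 and Ptgs2 counts in the sorted cells do not check the labels.

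Most proteins of this family are built from a pyrin domain, through which they assemble with other proteins, and a HIN domain, which binds DNA. AIM2 binds DNA in the cytosol and, through the adaptor ASC, activates caspase-1, which matures IL-1 beta and IL-18 and sets off pyroptosis. Ifi204 is a mouse relative of human IFI16 and acts in the response to cytosolic DNA that runs through STING to type I interferon. Other members are known from the nucleus, where they act on transcription and on myeloid differentiation, the source of the name of Mndal, myeloid nuclear differentiation antigen like. Interferons raise the transcription of most members, which places the family downstream as well as upstream of interferon in macrophages.

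The family lies in 1 block of chromosome 1 on GRCm38, from 173350879 for the start of Aim2 to 174031810 for the end of Ifi205, a span of 680.9 kb. That span holds 14 protein-coding genes, and Cadm3 is the 1 among them outside the family. Aim2 (173350879 to 173466040) and Ifi209 (173630917 to 173647928) run on the plus strand. Ifi213 (173566283 to 173599274), Ifi207 (173723427 to 173741747), Ifi204 (173747293 to 173766943), Mndal (173849126 to 173942491), Ifi211 (173896345 to 173913046), Ifi203 (173920407 to 173942672) and Ifi205 (174011998 to 174031810) run on the minus strand. The annotated span of Mndal overlaps those of Ifi211 and Ifi203 on the same strand. Because the assay counts 3′ ends, the last 500 bases of the transcripts were compared as stretches of 90 bases. Ifi211 and Ifi205 shared 59.4% of theirs with each other or with Mndal, and Ifi209 shared 58.6% of its own with Ifi214, so part of their reads cannot be placed and their counts are less certain. Transcripts of Ifi213 shared 0% to 19.0% with Ifi206 and Ifi208. Those of Mndal shared 0% to 8.5% with Ifi205 and Ifi211. Aim2, Ifi207, Ifi204 and Ifi203 shared 0%.

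The promoters of most members carry a common element. RefSeq promoter sequences (GRCm38.p6, from 250 bases before to 50 bases after the transcription start) were found for 8 of the 9 members, Ifi204 not among them, with 10 promoters in all. The core of the interferon-stimulated response element (ISRE), to which the ISGF3 complex and interferon regulatory factors bind, was searched on both strands as GAAA, 2 free bases and a further GAAA. It stood in 7 of these 10 promoters, which belong to 6 members, and in 3.44% of all 32851 promoters. A promoter of Mndal and a promoter of Ifi203 held it within identical sequence at separate places, so the promoters are not independent. The gamma-activated site TTCNNNGAA, searched on both strands, stood in 0 of the 10 and in 8.30% of all promoters. Ifi209 had the shorter AAATNGAAA, which overlaps the ISRE core by all but its first base. This shorter form was chosen after the promoters had been read, and it stood in 7 of the 10, each of another member, and in 1.87% of all promoters. Aim2 held none of these letters in the window. The stretches of 70 bases around the match, on the strand of each gene and with the matching letters in capitals, are shown because they carry what 7 members share.
Ifi213 (chr1:173599306-173599375, minus strand): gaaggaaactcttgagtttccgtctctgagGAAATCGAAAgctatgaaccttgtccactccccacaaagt
Ifi209 (chr1:173630751-173630820, plus strand): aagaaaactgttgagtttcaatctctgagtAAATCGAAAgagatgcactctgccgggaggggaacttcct
Ifi207 (chr1:173741811-173741880, minus strand): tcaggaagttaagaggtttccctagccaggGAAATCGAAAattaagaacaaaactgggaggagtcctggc
Mndal (chr1:173880184-173880253, minus strand): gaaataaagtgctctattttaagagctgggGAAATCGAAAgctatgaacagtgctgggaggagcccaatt
Ifi211 (chr1:173913044-173913113, minus strand): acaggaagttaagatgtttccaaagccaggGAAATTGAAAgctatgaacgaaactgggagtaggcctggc
Ifi205 (chr1:174031850-174031919, minus strand): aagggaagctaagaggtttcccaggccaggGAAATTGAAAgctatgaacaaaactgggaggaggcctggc
A promoter of Ifi203 (chr1:173942488-173942557, minus strand) had the same 70 bases as Mndal. Ifi211 and Ifi205 matched at 62 of 70 bases, and Ifi207 matched each of these at 59. The first capital lay 35 to 78 bases before the start in all of these members but Ifi205, where it lay 134 bases before. A match of letters is a description of the sequence and not evidence of binding.

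The matrix held 33368 cells in 17 named types. NTT had 8266 cells with a median of 7293 UMIs, RTT 7970 with 12627, RTT_ROSA26 6836 with 13280 and RTT_PTGS12KO 10296 with 12219. The samples were pooled and loaded 3 times on the chip, and 98 of 33270 distinct barcodes occurred in 2 loads. Monocytes (Monocyte_1, Infl_Mono and Monocyte_3) and macrophages (TAM_C1q, TAM_Spp1, TAM_cycling, TAM_H2Ab1 and Ctsk_Macro) made up 83.8% to 91.0% of each sample but split very differently. NTT held 6619 monocytes and 308 macrophages, RTT 522 and 6734, RTT_ROSA26 144 and 5993, and RTT_PTGS12KO 4015 and 5207. The type named Macro, 0.254% to 1.90% of a sample, was kept apart from the macrophages. Levels are given as CPM, the UMIs of a gene per 1e6 UMIs summed over the cells of a type and sample. Since each molecule is counted once at its 3′ end, CPM needs no correction for length between genes. Reads that cannot be placed between copies can still lower the levels and family shares of Ifi211, Ifi205 and Ifi209 against those of other members. The shorter shared stretches of Ifi213 and Mndal leave the same limit on a smaller part of their ends. Ranges in brackets are 95% exact Poisson intervals, which cover counting error only, and with 1 sample per group no test was possible.

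Across the 42 groups of cell type and sample that held at least 50 cells, the 4 samples of the type named Infl_Mono filled the first 4 places for 7 of 9 members. The types were named from clusters of the same counts, so this order is a description. Ifi204, the DNA sensor that acts with STING, stood at 979 CPM (961 to 997) in Infl_Mono cells of NTT, 964 (937 to 992) in RTT_PTGS12KO, 926 (874 to 980) in RTT and 727 (659 to 800) in RTT_ROSA26. The first 3 had overlapping intervals and the last stood below them. Ifi207 was highest in Infl_Mono of RTT, at 570 CPM (529 to 613), above NTT at 438 (426 to 450). The 8 macrophage markers summed to 25750 CPM in Infl_Mono of RTT and 4763 in NTT, and the 8 monocyte markers to 6462 and 11920, and their part in this order was not tested. Ifi205 followed another order. It was as high in cDC2, a type of conventional dendritic cell, of NTT (694 CPM, 661 to 729) as in Infl_Mono of NTT (698 CPM, 683 to 713), where the intervals overlapped, and both stood above Infl_Mono of RTT_PTGS12KO at 579.8. Aim2 was led by NK cells, at 45.9 CPM (41.0 to 51.1) in NTT and 41.1 (35.8 to 47.0) in RTT_PTGS12KO, although these neighbours and the next ones overlapped.

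**Figure D1:**
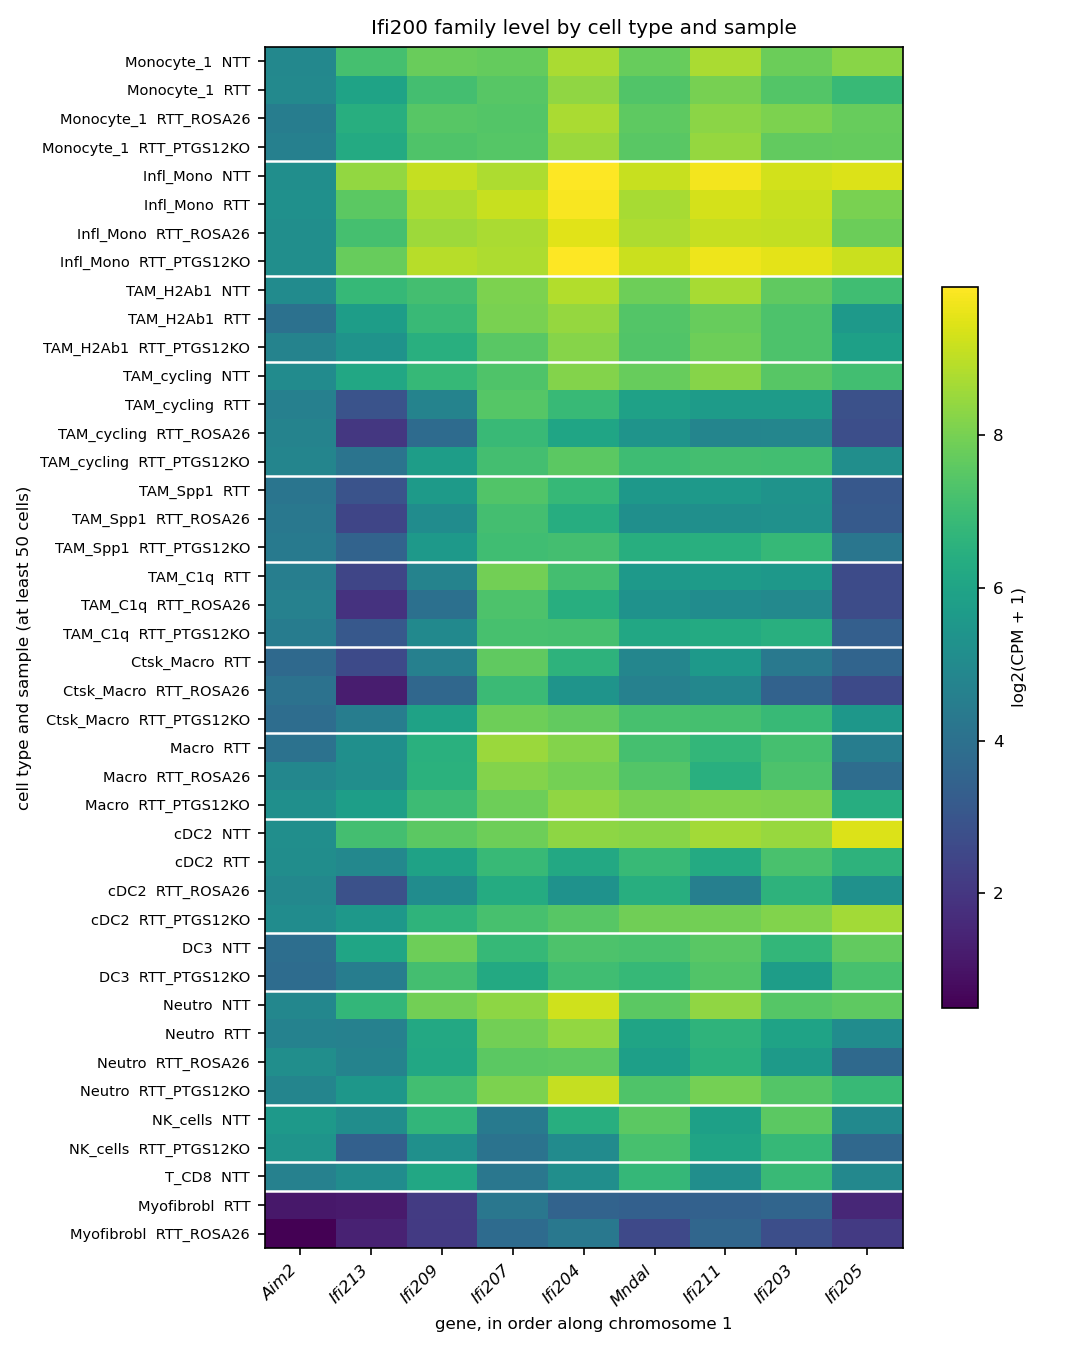
Level of each of the 9 members (columns, in their order along the chromosome) in each cell type and sample with at least 50 cells (rows), as a colour scale of log2(CPM + 1). Infl_Mono is the brightest group for most members, Ifi205 is also bright in cDC2, Aim2 is low and nearly even, and Myofibrobl is the darkest.

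Once Myofibrobl, CD45+ sorted cells with stromal genes, was left out, Aim2 was the most even member and Ifi205 and Ifi213 the most variable. Between the lowest and the highest of all 42 groups Aim2 spanned 111-fold, and Ifi207 was the most even at 44.3-fold. Without Myofibrobl Aim2 spanned only 3.77-fold. On the same 40 groups Ifi213 spanned 243-fold and Ifi205 136-fold. Their lowest values there, 1.40 and 5.12 CPM in Ctsk_Macro of RTT_ROSA26, had intervals that overlapped those of Myofibrobl, so these folds are rough. Ifi207 spanned 35.0-fold, with its lowest values in NK cells of RTT_PTGS12KO, at 16.3 CPM, and CD8 T cells of NTT, at 17.9 CPM, where the intervals overlapped. Mndal and Ifi203 led in NK cells instead, at 188 and 189.9 CPM in NTT. The order of members therefore depended on the cell type. Over the 42 groups the median correlation of a member with the other members on the log2 scale was 0.56 for Aim2, 0.54 for Ifi207 and 0.82 to 0.91 for the others. Without Myofibrobl it was 0.37 for both Aim2 and Ifi207 and 0.76 to 0.90 for the others. The groups share libraries and differ in depth, so these correlations are descriptions.

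The make-up of the family's UMIs showed the same division. Ifi207 gave 38.3% of all member UMIs in macrophages of RTT and 37.9% in RTT_ROSA26, against 18.6% in RTT_PTGS12KO and 13.1% in NTT. In monocytes its share was 13.2%, 11.5%, 9.69% and 9.14% in RTT, RTT_ROSA26, RTT_PTGS12KO and NTT. In macrophages of RTT and RTT_ROSA26, whose injected lines kept intact Ptgs genes, the family pool was thus led by Ifi207. Its share was 44.9% and 46.8% in Ctsk_Macro of these samples and 41.9% in TAM_C1q of RTT. In cDC1, the cross-presenting dendritic cells, Ifi205 alone gave 51.5% of member UMIs in NTT (32 cells) and 53.5% in RTT_PTGS12KO (37 cells).

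**Figure D2:**
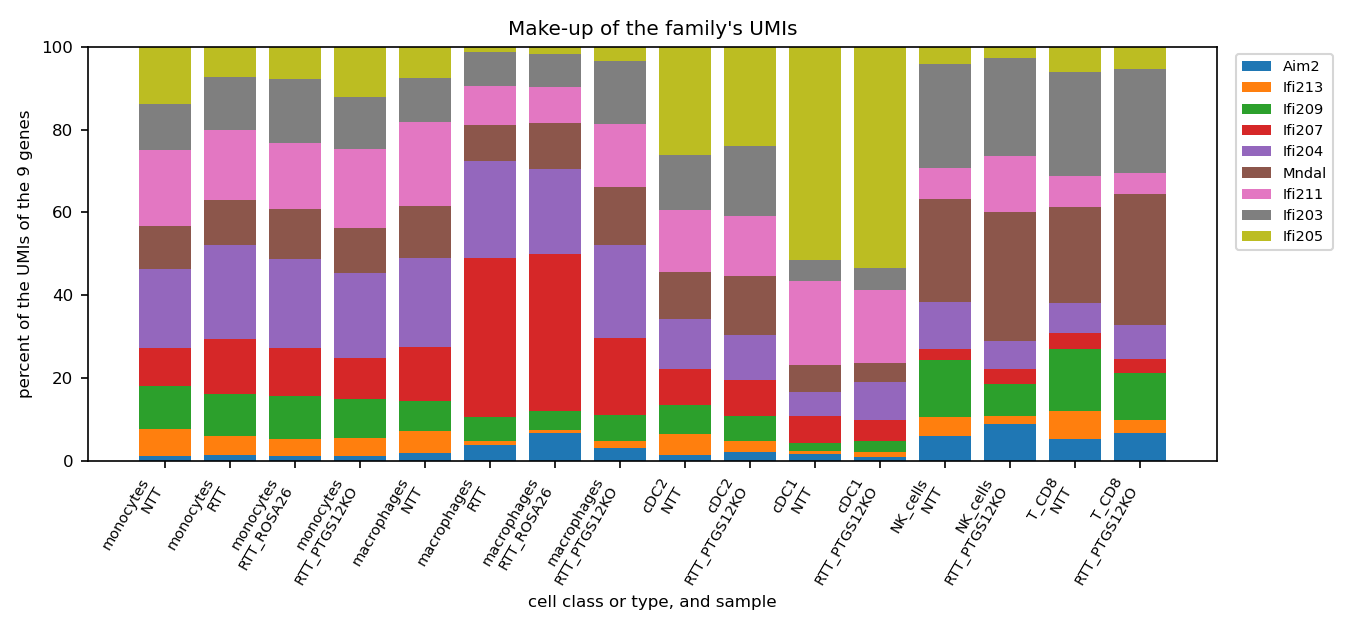
Share of the summed UMIs of the 9 members that each member gives, in percent, as stacked bars that add to 100, by cell type and sample. Ifi207 gives 38.3% and 37.9% in macrophages of RTT and RTT_ROSA26 and 13.1% in macrophages of NTT, while Ifi205 gives 51.5% in cDC1 of NTT.

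The first contrast asks how the family differs between the permissive NTT tumour and the resistant RTT tumour. In monocytes and macrophages together the 9 members summed to 2763 CPM in NTT, 1206 in RTT_PTGS12KO, 619 in RTT and 376 in RTT_ROSA26. Of the 9 members 7 were at least 2-fold higher in NTT than in RTT, where 6.90% of 6954 genes were, and the median log2 ratio of the members was 2.45 against -0.12 for all genes. Ratios are log2 differences of CPM + 1. These pooled values follow the share of monocytes in a sample. With the 5 cell types of at least 20 cells in both samples weighted equally, the median was 0.52 and 2 of 9 members were at least 2-fold higher. Such equal weights average the CPM of the types before the ratio, so types with high member levels, such as Infl_Mono, weigh most. Levels within each class therefore follow.

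**Figure D3:**
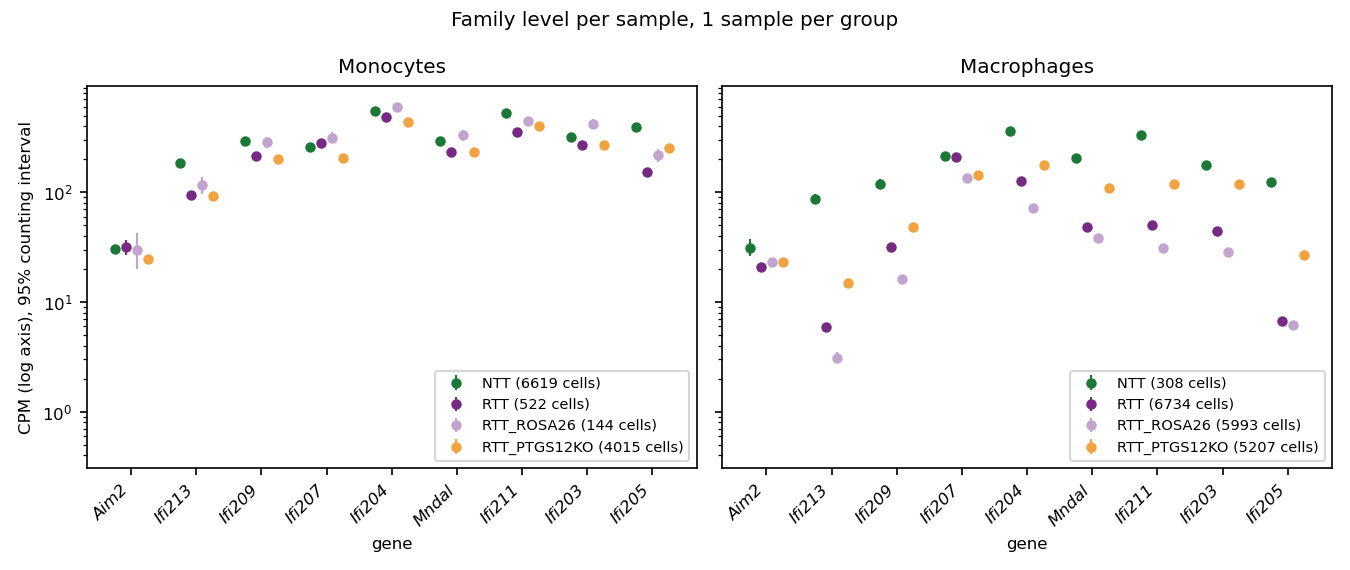
CPM of each member on a log axis in monocytes and in macrophages of the 4 samples, with 95% exact Poisson intervals. In macrophages the NTT point is highest for all 9 members and RTT_PTGS12KO lies above both other samples without overlap of intervals for 7 of them, while in monocytes the samples lie within 3-fold of each other.

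Within macrophages most members stood far apart between the samples. Ifi205 was at 124.5 CPM (114 to 136) in NTT, 26.8 (25.7 to 27.9) in RTT_PTGS12KO, 6.70 (6.20 to 7.24) in RTT and 6.17 (5.69 to 6.67) in RTT_ROSA26. NTT was highest, the knockout intermediate, and both resistant samples with intact Ptgs genes were low, with no overlap of intervals between these 3 levels. For NTT against RTT its log2 ratio was 4.03 (3.87 to 4.18). Ifi213 was at 87.1, 5.86, 3.11 and 14.8 CPM in NTT, RTT, RTT_ROSA26 and RTT_PTGS12KO. It kept NTT highest and the knockout next, with a log2 ratio of 3.68 (3.50 to 3.86), on a low level in RTT as for Ifi205. Ifi211 had 335, 50.6, 30.8 and 119 CPM in these samples, with a ratio of 2.70 (2.62 to 2.79). Ifi204 stood at 358, 127, 72.4 and 176 CPM, and its ratio was 1.49 (1.41 to 1.56). Mndal, Ifi203 and Ifi209 had ratios of 2.07, 1.96 and 1.90. Those 7 members were at least 2-fold higher in NTT, where 4.74% of 7061 genes were, and the family median was 1.96 against -0.00 for all genes.

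Ifi207 and Aim2 did not follow. Ifi207 was at 216 CPM (202 to 231) in macrophages of NTT and 208 (206 to 211) in RTT, above 145 (143 to 148) in RTT_PTGS12KO and 134 (131 to 136) in RTT_ROSA26. Its intervals in NTT and RTT overlapped, with a log2 ratio of 0.05 (-0.05 to 0.15). Aim2, the inflammasome sensor, was at 31.3 CPM (26.1 to 37.2) in NTT, 23.2 (22.3 to 24.3) in RTT_PTGS12KO, 23.2 (22.2 to 24.1) in RTT_ROSA26 and 20.7 (19.8 to 21.6) in RTT. NTT was above the others and the 3 resistant samples lay within 3 CPM of each other, and NTT against RTT gave a log2 ratio of 0.57 (0.32 to 0.82).

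The macrophages of NTT are few and of another make-up, and their number depended on how cells were assigned. By the UMIs of both marker lists instead of the deposited types, NTT held 2318 macrophages and 4579 monocytes. The macrophage median for NTT against RTT was then 2.02 and that for the knockout 1.89, with 7 members at least 2-fold higher in each. Most of these 2318 cells were monocytes by the deposited types. In NTT the members summed to 2850 CPM in deposited monocytes and 1654 in deposited macrophages. In the knockout 6773 cells were so assigned against 5207, and these sums were 2124 and 780 CPM. Both medians thus include deposited monocytes and do not hold the class fixed. By the deposited types, 192 of the 308 macrophages of NTT were TAM_H2Ab1 and 79 TAM_cycling, whereas 3412 of 6734 macrophages of RTT were TAM_C1q and 2057 TAM_Spp1. With the types both could fill (TAM_Spp1, TAM_cycling and TAM_H2Ab1) weighted equally, the median for NTT against RTT was 0.84 and 3 of 9 members were at least 2-fold higher. TAM_C1q was left out of these weights, and TAM_Spp1 of NTT had only 20 cells. For the summed members TAM_H2Ab1 of RTT, at 1383 CPM from 63 cells, weighed most in RTT. Monocyte markers moved with the result. The 8 monocyte markers summed to 2039 CPM in macrophages of NTT, 1027 in RTT_PTGS12KO, 1169 in RTT and 747 in RTT_ROSA26. The 8 macrophage markers summed to 17580 CPM in macrophages of NTT and 34660 in RTT, but 4 of the 8 were higher in NTT, and Apoe, at 6220 and 22300 CPM, made up most of the gap. The part of either list in the difference was not tested. Of the 8 monocyte markers 5 were higher in NTT when set against RTT, 5 were higher in the knockout when set against RTT_ROSA26, and none was at 0. Ly6c2, which marks classical monocytes, was at 587 CPM in NTT, 96.8 in RTT_PTGS12KO, 23.6 in RTT and 29.3 in RTT_ROSA26. Chil3, Vcan and F13a1 of the same list were lower in NTT than in RTT, F13a1 at 134 and 834 CPM. In the macrophages without a single UMI of Ly6c2 or Plac8, which were 70 cells of NTT, 2445 of RTT_PTGS12KO, 4611 of RTT and 3910 of RTT_ROSA26, the median was 1.80 in the contrast of NTT with RTT and 1.37 in that of RTT_PTGS12KO with RTT_ROSA26, and 7 of 9 members were at least 2-fold higher in each.

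In monocytes the samples differed less. Of the 9 members 1, Ifi205, was at least 2-fold higher in NTT than in RTT, where 1.63% of 6438 genes were, and the family median was 0.35 against 0.03. Ifi205 was at 394 CPM in NTT, 254 in RTT_PTGS12KO, 217 in RTT_ROSA26 and 154 in RTT. NTT was highest, and the log2 ratio was 1.35 (1.25 to 1.46). Ifi213 came next at 0.97 (0.84 to 1.10), with 186, 94.4, 116 and 92.6 CPM in NTT, RTT, RTT_ROSA26 and RTT_PTGS12KO. Ifi204 stood at 550, 484, 596 and 439 CPM, with NTT between both resistant samples with intact Ptgs genes. Ifi203 stood at 316, 272, 420.1 and 269.5 CPM. These monocytes were mostly Monocyte_1 in NTT (4977 cells), RTT (384) and RTT_PTGS12KO (3347), but mostly Infl_Mono in RTT_ROSA26 (86 of 144). Markers moved with these values as well. In monocytes of NTT, RTT_PTGS12KO, RTT_ROSA26 and RTT the macrophage markers summed to 5301, 6398, 9373 and 15400 CPM and the monocyte markers to 8621, 6394, 7832 and 3966 CPM, and their part was not tested. Of the 8 macrophage markers 4 were higher in the knockout than in RTT_ROSA26, and 1 was higher in NTT than in RTT. When cells were instead assigned by marker UMIs, the median for NTT against RTT in monocytes was 1.18 and 6 members were at least 2-fold higher.

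**Figure D4:**
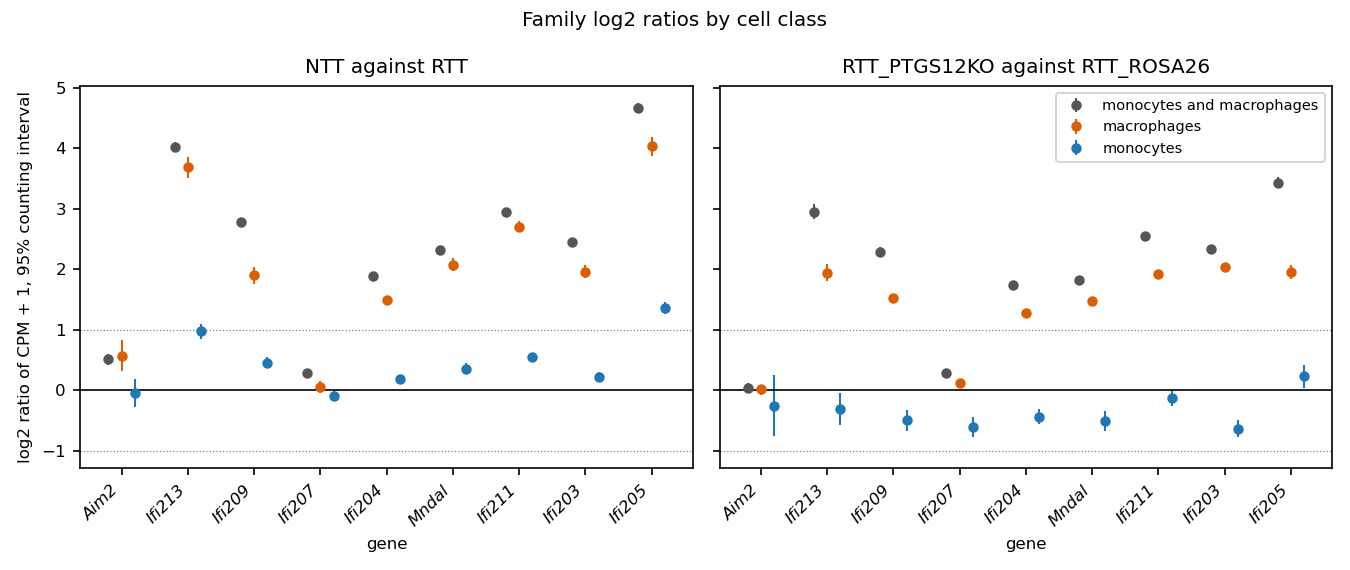
Log2 ratio of CPM + 1 for each member, NTT against RTT (left) and RTT_PTGS12KO against RTT_ROSA26 (right), in monocytes and macrophages together (grey), macrophages (orange) and monocytes (blue), with 95% counting intervals and lines at 0 and at a 2-fold difference. In macrophages 7 members lie beyond the 2-fold line in both contrasts and Ifi207 and Aim2 do not, while for the knockout in monocytes 8 of 9 members lie below 0.

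The second contrast asks what loss of Ptgs1 and Ptgs2 in the tumour cells does to the family in the immune cells. In monocytes and macrophages together 7 of 9 members were at least 2-fold higher in RTT_PTGS12KO than in RTT_ROSA26, where 4.10% of genes were, with a median of 2.29 against -0.12. With the types weighted equally the median was 0.53 and 0 of 9 members were at least 2-fold higher. Infl_Mono, at 3440 CPM for the summed members in RTT_ROSA26 against 324 in TAM_cycling, weighs most in that average. Medians within the single types were -0.06 in Monocyte_1, 0.43 in Infl_Mono, 0.86 in TAM_C1q and 1.03 in TAM_Spp1. They were 1.98 in TAM_cycling and 2.3 in Ctsk_Macro. Within macrophages the median was 1.52 against -0.08, and 7 of 9 members were at least 2-fold higher, where 2.52% of genes were. With the macrophage types weighted equally it was 1.59, again with 7 members. The type Macro, in which the 8 macrophage markers summed to 9549 to 37320 CPM against 16660 to 34660 in the macrophages, was left out. With it counted in, the medians were 1.95 for NTT against RTT and 1.48 for the knockout, with 7 members past 2-fold in each. Ifi203, of which the levels were 118 CPM (116 to 121) in RTT_PTGS12KO and 28.3 (27.3 to 29.4) in RTT_ROSA26, had the highest ratio, at 2.03 (1.97 to 2.08). Ifi205 followed at 1.95, Ifi213 at 1.94, Ifi211 at 1.92, Ifi209 at 1.52, Mndal at 1.48 and Ifi204 at 1.27. Ifi207, at 0.12 (0.08 to 0.15), and Aim2, at 0.01 (-0.08 to 0.09), were again apart from these 7. Macrophage markers moved in the other direction, since none of the 8 was higher in the knockout and their sum was 16660 CPM there and 27040 in RTT_ROSA26. The part of these markers in the result was not tested.

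In monocytes the knockout was not higher. The median log2 ratio was -0.44 against 0.00 for all genes, and 0 of 9 members were at least 2-fold higher, where 1.82% of genes were. Ifi205 was the 1 member above 0, at 0.23 (0.04 to 0.42). These values rest on the 144 monocytes of RTT_ROSA26. Within Infl_Mono alone the median was 0.43, within Monocyte_1 alone it was -0.06, and with these types weighted equally the class median was 0.25. Assignment by marker UMIs gave 1.15 with 6 members at least 2-fold higher. Most of its 388 monocytes of RTT_ROSA26 were macrophages by the deposited types, so this value is not one within monocytes. In RTT_ROSA26 the members summed to 352 CPM in deposited macrophages and 2753 in deposited monocytes. With the deposited types alone the direction still differed between types and weights, so it was not stable.

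RTT_ROSA26 against RTT serves as a yardstick, as both are resistant lines with intact Ptgs genes. It shares RTT with the first contrast and RTT_ROSA26 with the second. In macrophages the median was -0.64 against 0.06 for all genes, and 0 of 9 members were at least 2-fold lower, where 0.779% of genes were. The members ranged from -0.90 for Ifi209 to 0.16 for Aim2, with Ifi205 at -0.10 (-0.24 to 0.03). Ifi207 differed more here, at -0.64, than in the other contrasts, at 0.05 and 0.12. In monocytes and macrophages together 2 members, Ifi213 at -1.08 and Ifi209 at -1.04, were at least 2-fold lower in RTT_ROSA26, where 1.22% of genes were.

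Single cell types showed how far the pattern reached. In TAM_cycling, dividing macrophages, 7 members were at least 2-fold higher in NTT (79 cells) than in RTT (873 cells), where 4.62% of genes were, and Ifi205 had the highest ratio, at 4.27 (3.96 to 4.57) from 135 and 6.1 CPM. For the knockout, 6 members over the minimum level of 10 CPM were at least 2-fold higher in TAM_cycling against 2.71% of genes, and 7 in Ctsk_Macro against 4.37%. The mean of Ifi213 over both samples was below that minimum in TAM_cycling, at 16.6 CPM in the knockout and 3.1 in RTT_ROSA26, and was not counted. In Ctsk_Macro, macrophages marked by the cathepsin K gene, Ifi203 stood at 115 CPM in RTT_PTGS12KO and 10.0 in RTT_ROSA26, with a ratio of 3.40 (3.09 to 3.70). The monocyte markers summed to 201 CPM there in the knockout and 120 in RTT_ROSA26. In TAM_cycling they summed to 2841 CPM in NTT and 934 in RTT, and to 1052 in the knockout and 541 in RTT_ROSA26. The macrophage markers of TAM_cycling summed to 11730 and 28680 CPM, and to 14260 and 26810. The part of these markers was not tested. In Ctsk_Macro 1 member over the minimum, Ifi204, was at least 2-fold lower in RTT_ROSA26 than in RTT (2.03% of genes), and the median of all 9 was -0.85. The macrophage markers summed to 9008 and 24140 CPM there. The difference for the knockout was smaller in TAM_C1q and TAM_Spp1, with 2 members over the minimum at least 2-fold higher in the former (1.32% of genes) and 4 in the latter (1.51%). The mean of Ifi213 was again below the minimum in both types, at 7.50 and 2.67 CPM in TAM_C1q and at 10.4 and 4.52 in TAM_Spp1. The monocyte markers summed to 941 CPM in TAM_C1q of the knockout and 704 in RTT_ROSA26, and the macrophage markers to 23760 and 37240. In TAM_Spp1 these sums were 1328 and 1882 CPM for monocyte markers and 12770 and 13410 for macrophage markers, and their part was not tested. In TAM_C1q Ifi203 stood at 87.6 CPM in the knockout and 29.5 in RTT_ROSA26, a ratio of 1.54 (1.44 to 1.65), whereas Ifi207 stood at 144 and 155, a ratio of -0.10 (-0.16 to -0.04). In TAM_H2Ab1, compared only between NTT and RTT, 3 members were at least 2-fold higher in NTT, where 3.41% of genes were, and the median was 0.46. There the monocyte markers summed to 1310 CPM in NTT and 693 in RTT, and the macrophage markers to 20680 and 34330. The monocyte types showed less of it. In Monocyte_1 2 members were at least 2-fold higher in NTT (2.22% of genes) and 0 in the knockout (3.14%), and in Infl_Mono 1 member was in each contrast, Ifi205 both times (2.94% and 3.38% of genes). In Monocyte_1 the macrophage markers summed to 5470 CPM in NTT and 11770 in RTT, and the monocyte markers to 7637 and 3090. In Infl_Mono these sums were 3550 and 14860 CPM in the knockout and 10760 and 9619 in RTT_ROSA26, and their part was not tested. In Macro 2 members were at least 2-fold higher in the knockout (5.31% of genes), where the macrophage markers summed to 9549 CPM against 37320 in RTT_ROSA26 and the monocyte markers to 2511 and 2414, and their part was not tested.

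**Figure D5:**
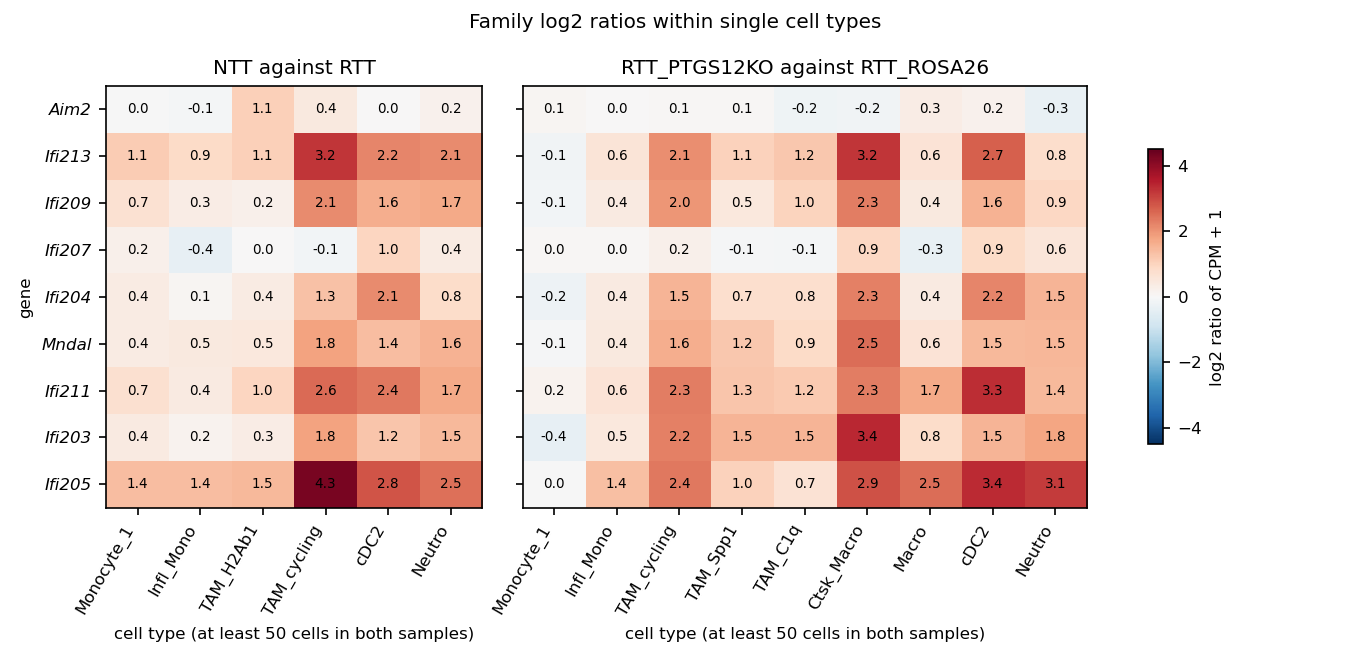
Log2 ratio of CPM + 1 of each member in each cell type with at least 50 cells in both samples, for the contrasts NTT against RTT (left) and RTT_PTGS12KO against RTT_ROSA26 (right). cDC2, Neutro and the cycling macrophages show the family higher in NTT and in the knockout, most members in Monocyte_1 and Infl_Mono lie within a 2-fold difference, and Ifi207 lies between -0.38 and 0.98 throughout.

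The dendritic cells named cDC2 and neutrophils showed it as well. In cDC2 Ifi205 was at 694 CPM in NTT, 394 in RTT_PTGS12KO, 95.9 in RTT and 37.2 in RTT_ROSA26. NTT and the knockout were both well above the other 2 samples, with ratios of 2.84 (2.64 to 3.05) and 3.37 (3.09 to 3.65). Ifi211 was at 398, 241, 75.7 and 23.0 CPM in this order of samples, with a ratio of 3.33 (2.98 to 3.69) for the knockout. In cDC2 7 members were at least 2-fold higher in NTT (4.81% of genes) and 7 in the knockout (4.52%). The 8 monocyte markers summed to 5245, 2520, 824 and 796 CPM in cDC2 in this order of samples, so they moved with the result, and their part in it was not tested. In cDC2 3 members were at least 2-fold lower in RTT_ROSA26 than in RTT, where 3.64% of genes were. In neutrophils Ifi204 was at 608 CPM in NTT, 549 in RTT_PTGS12KO, 343 in RTT and 190.3 in RTT_ROSA26. Of the members 6 were at least 2-fold higher in NTT (4.91% of genes) and 5 in the knockout (4.26%), while 1 was at least 2-fold lower in RTT_ROSA26 than in RTT (2.15%). Neutrophils numbered 106 to 146 per sample, and monocyte markers summed to 5627, 4328, 3134 and 1702 CPM and macrophage markers to 5062, 7592, 18930 and 19820 CPM in them in this order of samples, whose part was not tested.

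Over all types that could be compared, Ifi205 was at least 2-fold higher in 6 of 6 types for NTT against RTT (log2 ratios 1.39 to 4.27) and in 7 of 9 for the knockout (-0.01 to 3.37). Ifi207 was so in 0 of 6 and 0 of 9 types, from -0.38 to 0.98 and from -0.33 to 0.93. It was lower in RTT_ROSA26 than in RTT in 10 of 10 types, with the counting interval below 0 in 8 of them. Aim2 passed 2-fold in 1 of 6 and 0 of 9 types. The types come from the same libraries and are not replicates of a condition.

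Detection per cell was compared after thinning each cell to 3000 UMIs. At least 1 member was seen in 98.9%, 96.1%, 96.4% and 97.2% of monocytes and in 97.1%, 71.7%, 57.6% and 78.2% of macrophages of NTT, RTT, RTT_ROSA26 and RTT_PTGS12KO. Myofibrobl cells of RTT and RTT_ROSA26, stromal by name and lowest for most members, served as a reference, and whether they lack the members was not tested. In them the share was 11.3% in RTT and 12.1% in RTT_ROSA26, at median depths of 33469 and 32760 UMIs before thinning, against 12915 and 14097 in macrophages. At least 5 members were seen in 26.8% of macrophages of NTT, 4.14% of RTT_PTGS12KO, 1.15% of RTT and 0.655% of RTT_ROSA26, and in 28.5% to 50.8% of monocytes. Ifi205 was seen in 29.7% of macrophages of NTT and 5.51% of RTT_PTGS12KO, but in 1.51% of RTT and 1.48% of RTT_ROSA26, while Myofibrobl cells of these samples had 1.21% (0.250% to 3.49%) and 1.72% (0.0436% to 9.24%, exact Clopper-Pearson). Ifi213 was seen in 23.5% of macrophages of NTT, 3.91% of RTT_PTGS12KO, 1.42% of RTT and 1.0% of RTT_ROSA26, with 0% (up to 1.48%) and 1.72% (up to 9.24%) in Myofibrobl cells of the last 2 samples. At this depth neither gene was told apart from that reference in macrophages of RTT and RTT_ROSA26 by its share of cells. By level both were higher in macrophages of RTT, Ifi205 at 6.70 against 1.94 CPM (1.13 to 3.10) and Ifi213 at 5.86 against 1.25 (0.626 to 2.24), and in RTT_ROSA26 the intervals overlapped. Ifi207 was seen in 43.1%, 41.9%, 30.8% and 31.5% of macrophages of NTT, RTT, RTT_ROSA26 and RTT_PTGS12KO, well above the 3.63% and 5.17% of Myofibrobl cells. Before thinning, at least 1 member was seen in 91.4% to 100% of macrophages and Ifi205 in 62.0%, 5.94%, 4.71% and 19.0% of them.

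The genes around the family in its pathways differed in part. Of the 4 other family genes of the block, Ifi206 and Ifi208 reached 10 CPM in the mean of the samples. Ifi206 stood at 121, 8.58, 3.77 and 26.5 CPM in monocytes and macrophages of NTT, RTT, RTT_ROSA26 and RTT_PTGS12KO, and Ifi208 at 42.3, 2.32, 1.08 and 7.52 CPM. Both were at least 2-fold higher in NTT and in the knockout, with ratios of 3.67 and 2.53 for Ifi206 and 3.71 and 2.03 for Ifi208. A list of 10 genes covered the AIM2 inflammasome and other inflammasomes. Of these, 3 were at least 2-fold higher in NTT (6.90% of all genes) and 2 in the knockout (4.10% of all genes), with medians of 0.93 and 0.46. Casp1, the protease that AIM2 activates, stood at 171, 56.9, 46.9 and 115 CPM, with ratios of 1.57 and 1.27, and Casp4, which senses lipopolysaccharide, had ratios of 1.60 and 1.24. Pycard, which codes for ASC, and Nlrp3 were the lowest for NTT against RTT, at 0.24 and 0.23, and Casp8 and Mefv, which codes for the sensor pyrin, the lowest for the knockout, both at -0.01. Of these 10 genes 1 was at least 2-fold higher in NTT within macrophages (4.74% of all genes) and 0 in the knockout (2.52%), and within monocytes 1 and 0 were (1.63% and 1.82%).

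Of 15 genes of DNA sensing through STING, 11 reached the minimum level, 4 were at least 2-fold higher in NTT and 2 in the knockout, against the same 6.90% and 4.10% of all genes, and the medians were 0.32 and -0.10. Zbp1, a sensor of left-handed nucleic acids, had ratios of 3.15 and 2.78. Samhd1, which cleaves deoxynucleotides, stood at 861, 145, 87.5 and 444 CPM, with ratios of 2.57 and 2.33. Within macrophages 3 and 2 genes of this list were at least 2-fold higher (4.74% and 2.52% of all genes), and within monocytes 0 in each contrast (1.63% and 1.82%). At the other end of the pooled ratios stood Ddx41, at -0.59 and -0.42, and Dnase2a, which degrades DNA in lysosomes, at -0.42 and -0.84. Of 13 genes of interferon signalling 6 and 5 were at least 2-fold higher, again beside 6.90% and 4.10% of all genes, with medians of 0.86 and 0.59. Irf7 had the highest ratio for NTT against RTT, at 4.17, and Irf1 had a ratio of 2.99 for the knockout. The receptor genes Ifnar1 and Ifngr1 were at -0.04 and -0.81 for NTT against RTT, and Ifngr2 and Ifngr1 at -0.20 and -0.50 for the knockout. Within macrophages the interferon list had 5 genes at least 2-fold higher in each contrast (4.74% and 2.52% of all genes), and within monocytes 1 in NTT (1.63%) and 0 in the knockout (1.82%).

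Over the same 42 groups, the genes whose log2 level was most like the summed family were Parp14 (Pearson r = 0.970), Zbp1 (0.964), Rnf213 (0.961), Slfn8 (0.960) and Oas1a (0.960), of 7096 genes compared. For the single members the most alike gene outside the members was Ifi206, in which part of the 3′ ends of Ifi213 also occurs, for Ifi213 (0.975), Zbp1 for Ifi211 (0.958) and Ifi209 (0.954), Nmi for Mndal (0.951), Slfn8 for Ifi204 (0.937), Ifi35 for Ifi205 (0.931) and Gm4070 for Ifi203 (0.930). Aim2 and Ifi207 again differed. Aim2 was most like Ptprc, the gene of CD45, at 0.948, which was 0.805 without Myofibrobl. Ifi207 was most like Bach1, a repressor of haem and oxidative stress genes, at 0.924. These are likenesses of pattern across groups from 4 shared libraries.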

How the data were processed

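UMI counts of genes by cells were deposited by the authors as raw values, beside a table that names the sample and type of every cell. They had run Cell Ranger against mm10, dropped cells with 1000 genes or fewer, 15% or more mitochondrial or 40% or more ribosomal UMIs, and named types in Seurat 4.3.0 after Harmony integration. Doublets between samples are removed by the multiplexing oligos, and no further doublet caller was run here. The members and gene lists were chosen with earlier results of these data known. UMI counts were summed per sample and type and divided by total UMIs (CPM). Ratios are log2 differences of CPM + 1 between 2 samples, with normal intervals on the log scale from Poisson errors. Calls needed a 2-fold difference of genes whose mean over the 4 samples (in single types, over the 2 compared) reached 10 CPM, members included, while medians and directions used all 9 members, and groups needed 50 cells. The 95% intervals and all shares cover counting error only. Coordinates came from GENCODE for GRCm38 and promoters from RefSeq. Named genes were all members, the 2 highest and 2 lowest ratios of each list in monocytes and macrophages for both main contrasts, the 5 genes most like the family and the 1 most like each member. The rule also names 1 gene that is not reported here. Steps used numpy 2.4.6, scipy 1.17.1, pandas 2.3.3 and matplotlib 3.10.9 in Python 3.11.15, and edgeR 4.0.16 in R 4.3.3 for TMM factors, and were tested on simulated data. Alternatives were CPM + 10, TMM factors, the mean of per-cell CPM, over 1500 genes and under 10% mitochondrial UMIs, types weighted equally, each load left out, assignment by marker UMIs, and unthinned shares. Macrophages without Ly6c2 and Plac8 UMIs, and Macro counted as macrophages, were chosen after seeing the data.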

Additional observations from a re-analysis of the deposited data

Results flagged for a closer look

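Several ratios pointed in opposite directions in macrophages and in monocytes of the same samples, and the differences were not tested. For RTT_PTGS12KO against RTT_ROSA26 the log2 ratio in macrophages and in monocytes was 1.94 and -0.32 for Ifi213, 1.52 and -0.50 for Ifi209, 0.12 and -0.61 for Ifi207, 1.27 and -0.44 for Ifi204, 1.48 and -0.51 for Mndal, and 2.03 and -0.64 for Ifi203. For RTT_ROSA26 against RTT it was -0.90 and 0.40 for Ifi209, -0.80 and 0.30 for Ifi204, -0.33 and 0.51 for Mndal, -0.70 and 0.31 for Ifi211, and -0.63 and 0.63 for Ifi203. All of these share RTT_ROSA26, whose monocytes numbered 144, of which 86 were Infl_Mono.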

How the results depend on the processing

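No paired analysis was possible because no group had a second sample. Of 603 alternatives to the ratios of single members, 410 stayed within their counting interval, 179 moved and 14 changed sign. In monocytes and macrophages together, the family median for NTT against RTT (2.45) was 2.27 with CPM + 10, 2.59 with TMM factors and 0.52 with types weighted equally, which left 2 members past 2-fold. For RTT_PTGS12KO against RTT_ROSA26 (2.29) these were 1.80, 2.45 and 0.53, with 0 members past 2-fold under equal weights. For RTT_ROSA26 against RTT (-0.76) they were -0.61, -0.85 and -0.16, with -0.63 as the mean of per-cell CPM and -0.85 without load 1. The 2 members at least 2-fold lower became 0 with CPM + 10, per-cell CPM or equal weights and 1 without load 2. Within macrophages the first median (1.96) was 1.77 with CPM + 10, 0.84 with equal weights (3 members past 2-fold) and 1.80 without Ly6c2 and Plac8 UMIs. The second (1.52) was 1.17 with CPM + 10, 1.61 with TMM, 1.41 per cell, 1.89 by marker assignment and 1.37 without Ly6c2 and Plac8 UMIs. The third (-0.64) was -0.51, -0.74, -0.55, -0.55 with equal weights and -0.82 by marker assignment, where 2 members were at least 2-fold lower. Within monocytes the first (0.35) was 1.18 by marker assignment, and the count of 1 member became 6 by assignment and 2 per cell or without load 2. The second (-0.44) turned to 0.25 with equal weights and 1.15 by assignment (6 members past 2-fold), and the third (0.31) to -0.07 and -0.26. Single members turned too. Ifi207 for NTT against RTT was -0.13 with equal weights in the pooled cells and 0.44 by assignment in monocytes. For the knockout in monocytes, equal weights and assignment gave 0.35 and 1.79 for Ifi213, 0.25 and 1.12 for Ifi209, 0.04 and 0.19 for Ifi207, 0.20 and 0.84 for Ifi204, 0.29 and 1.33 for Mndal, and 0.24 and 1.15 for Ifi203. The causes were not tested. Summed member levels in the pooled cells were 2730 CPM under the stricter filter and 2900 per cell in NTT, 651 per cell in RTT, 423 in RTT_ROSA26, and 1190 and 1440 in RTT_PTGS12KO. In macrophages they were 537, 367 and 738 per cell in RTT, RTT_ROSA26 and RTT_PTGS12KO, and in monocytes 2820 and 2960 in NTT and 2100 and 2340 in RTT_PTGS12KO. Unthinned shares of cells with a member in NTT, RTT, RTT_ROSA26 and RTT_PTGS12KO were 99.9%, 95.9%, 91.6% and 98.5% in the pooled cells, 100%, 95.6%, 91.4% and 97.5% in macrophages and 99.9%, 99.4%, 99.3% and 99.9% in monocytes. Thinning to 3000 UMIs limits the shares of cells with Ifi205 and Ifi213 in macrophages of RTT and RTT_ROSA26, and 1 sample per group limits every contrast.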

Other observations

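Ifi202b, the family gene without a pyrin domain, stood at 3.0 CPM (18 UMIs) in Ctsk_Macro of RTT, 2.21 (19 UMIs) in RTT_ROSA26 and 1.55 (6 UMIs) in RTT_PTGS12KO, and at no more than 0.146 CPM in every other type and sample of at least 50 cells. Ifi214, which shares its 3′ end with Ifi209, stood at 11.0, 0.633, 0.278 and 2.17 CPM in monocytes and macrophages of NTT, RTT, RTT_ROSA26 and RTT_PTGS12KO. Myofibrobl cells of the knockout, only 37 in number, held Ifi203 at 51.7 CPM (39.9 to 65.8), against 10.8 in RTT and 5.81 in RTT_ROSA26.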
